A study of Oryza sativa with 58 samples.

Results

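The 10 genes described here add or remove methyl groups on histone H3 in rice, and their expression was followed in young leaf of 17 varieties. They are 4 genes of Polycomb repressive complex PRC2, SDG711 (LOC_Os06g16390, chromosome 6), SDG718 (LOC_Os03g19480, chromosome 3), FIE2 (LOC_Os08g04270, chromosome 8) and EMF2b (LOC_Os09g13630, chromosome 9). SDG714 (LOC_Os01g70220, chromosome 1) is a methyltransferase of H3K9, and SDG725 (LOC_Os02g34850, chromosome 2) and SDG724 (LOC_Os09g13740, chromosome 9) are methyltransferases of H3K36. JMJ703 (LOC_Os05g10770, chromosome 5), JMJ705 (LOC_Os01g67970, chromosome 1) and JMJ706 (LOC_Os10g42690, chromosome 10) are demethylases of the Jumonji class. The chromosomes are those in the MSU7 identifiers. They were chosen by function and identifier and not by a rule on their values, though earlier results of these data were known. They make up 10 of the 55986 genes listed in the expression tables.

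Methylation of a histone tail marks chromatin as active or silent according to which lysine carries the methyl groups. PRC2 methylates H3K27, the mark of developmentally silenced genes, through a catalytic subunit of the E(z) type that works with partners of the ESC and Su(z)12 types. Methylation of H3K9 is typical of transposons and heterochromatin, that of H3K36 accompanies transcription, and Jumonji proteins take methyl groups off again.

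The study mapped histone marks and transcription in rice, and its RNA-Seq part holds 58 libraries. The 34 libraries used here, 2 for each variety, came from young leaf of 2-week-old hydroponic seedlings and list genes by MSU7 identifiers. All shared 1 growth regime, in which seeds soaked for 72 h at 37 °C were raised in a phytotron with days of 14 h at 32 °C and nights of 10 h at 28 °C, and the labels name no other treatment than freezing of the samples. The varieties were HKG 98, Garia, Aijiaonante, Xibaizhan, WH139, Nanjing11, 9311, Y134, IR72, PeiC122, Yong Chal Byo, TAINO 38, Ginga, LABELLE, Latisai1, Gasym Hany and BASMATI 385, which differ in their genomes and not in age or treatment. The labels do not say whether the replicates came from separate plants, so p-values measure the spread between these libraries, which may be technical.

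The values are FPKM, which are scaled to gene length and to the size of the library, so that levels of different genes can be compared on this scale, but the number of reads behind a value is unknown. The FPKM of a library summed to between 609065 and 1442721, and 18170 to 20083 genes were above 1 FPKM. PeiC122 replicate 1 had both the lowest sum and the fewest genes above 1 FPKM. Its 10 most abundant genes also held the lowest share of the summed FPKM, 8.94%. Depth relative to HKG 98 replicate 1, estimated from the steps between low values, lay between 0.418 and 1.02. In 14 libraries these steps did not line up with those of the other 20, so the depths of the 14, which include the lowest, are uncertain. The 10 most abundant genes held a median of 26.4% of the summed FPKM in the 14 against 15.5% in the 20. The labels name no batch that matches this split. Replicates correlated with Pearson r between 0.951 and 0.995 over log2(FPKM + 1), the lowest being PeiC122. The median absolute difference between its replicates was 0.470 on that scale, against 0.0782 to 0.207 in the other 16 varieties, so results that rest on PeiC122 are set beside fits without 1 or both of its libraries.

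All 10 genes had values above 1 FPKM in every young leaf library, with FIE2, SDG718 and the last pair of places fixed and the middle of the order shifting between libraries. FIE2, the ESC-type WD40 partner of PRC2, had the highest level of the 10 in all 34 libraries, between 21.6 and 54.6 FPKM (median 28.4). JMJ706, a demethylase of H3K9, followed with a median of 18.7 FPKM (10.3 to 26.6), and EMF2b, the Su(z)12-type partner of PRC2, with 18.3 FPKM (16.6 to 32.4). SDG725 and JMJ703 had medians of 16.9 and 15.2 FPKM. JMJ706 took places from 2 to 7 in the order of a library, SDG711 from 3 to 7, SDG725 from 2 to 6 and EMF2b from 2 to 5. Of the genes for the E(z)-type catalytic subunits, SDG711 had a median of 14.2 FPKM (10.8 to 21.3) and SDG718 one of 7.46 FPKM (5.64 to 15.98), the eighth level in every library. SDG714 and JMJ705 took the last places in every library, with medians of 3.07 and 2.43 FPKM. In whole leaf, fewer cells of a type and less RNA per cell cannot be told apart.

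**Figure D1:**
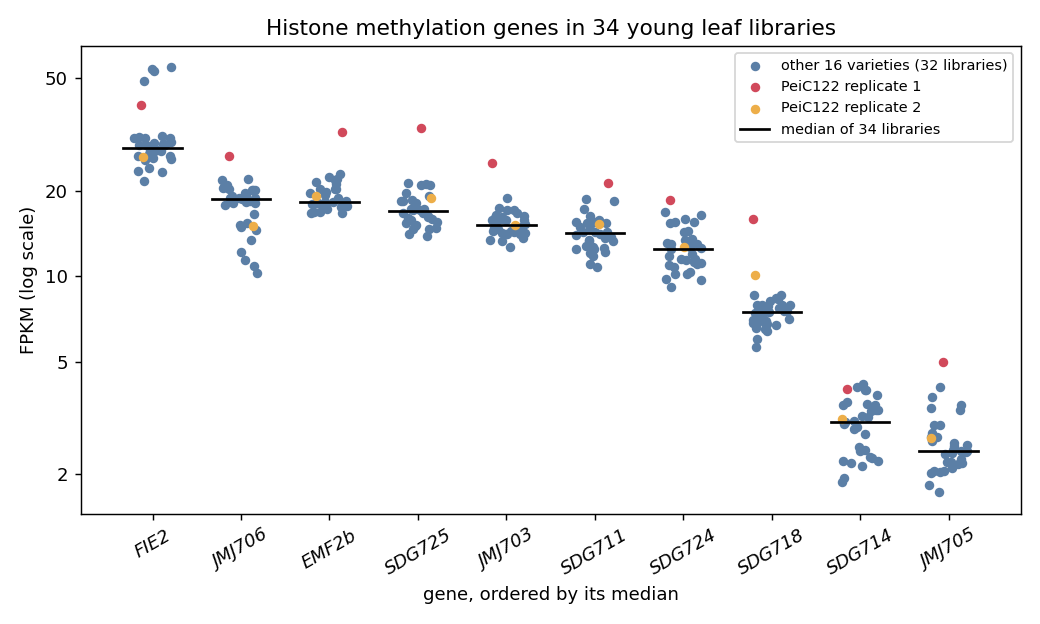
FPKM (log axis) of the 10 genes in each of 34 young leaf libraries, ordered by median; each point is a library and the line is the median. FIE2 lies highest with a median of 28.4 FPKM and JMJ705 lowest with 2.43, and PeiC122 replicate 1 (red) is above all 32 libraries of the other varieties for 8 of the 10 genes.

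To ask which of these genes differed among varieties, log2(FPKM + 1) was fitted with limma for all 24568 genes with a variety mean above 1 FPKM, and all 10 passed this filter. A gene was called when its Benjamini-Hochberg adjusted p in the F test over 17 varieties was below 0.01 and its highest and lowest variety means differed above 1.5-fold on the log2(FPKM + 1) scale, which understates the change of low genes. FIE2, SDG711, SDG718, SDG714 and JMJ706 were called, 5 of 10, where 68.8% of all genes tested were called. Among the 12888 genes whose mean FPKM lay between those of the lowest and highest of the 10, 69.5% were called. The range between the highest and lowest variety mean had a median of 0.70 (log2) over the 10 genes against 1.24 over all genes tested, and none of the 10 exceeded that median. The ranges ran from 0.50 for EMF2b to 1.23 for FIE2, which lay close to the median of all genes. Among the genes of the same span of levels the median range was 1.18, with 9 of the 10 below it and FIE2 above it.

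FIE2 had the widest range of the 10 and was high in TAINO 38 and LABELLE. The TAINO 38 libraries held 53.7 and 54.6 FPKM of FIE2 and the LABELLE libraries 52.8 and 48.9. The other 30 libraries lay between 21.6 and 40.2 FPKM (median 27.8), with no overlap. The highest of them was PeiC122 replicate 1, while PeiC122 replicate 2 held 26.3 FPKM. TAINO 38 and LABELLE were picked as the highest of the order, which favours such a gap. In the remaining 14 varieties the means ran from 30.8 FPKM in Garia down to 23.8 in IR72 and 22.5 in Yong Chal Byo, whose replicates held 23.3 and 21.6.

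Against the mean of the other 16 varieties, FIE2 was higher by 0.88 in TAINO 38 (log2, SE 0.09, n = 2, adjusted p = 1.02e-07 by limma) and by 0.78 in LABELLE (SE 0.09, n = 2, adjusted p = 4.9e-07 by limma). In these varieties 11.2% and 9.59% of all genes tested were called higher. Over all varieties 6.95% of gene and variety combinations were called higher and 6.8% lower. The F test over varieties gave FIE2 an adjusted p of 8.51e-07 by limma. Of the 136 pairs of varieties FIE2 was called in 30, and each of these set TAINO 38 or LABELLE against another variety. Over all genes and pairs, 16.8% of the combinations were called, and the median gene had 15 pairs. TAINO 38 and LABELLE did not differ from each other by this test. The step from LABELLE to PeiC122, 1.54-fold on the log2(FPKM + 1) scale (adjusted p = 0.000293 by limma), was the only step between neighbours in the order of varieties that was called for any of the 10 genes. LABELLE was also called over Garia, the next variety if PeiC122 is left out (1.63-fold, adjusted p = 0.000106 by limma). No library left out in turn removed the call of FIE2 in either variety.

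**Figure D2:**
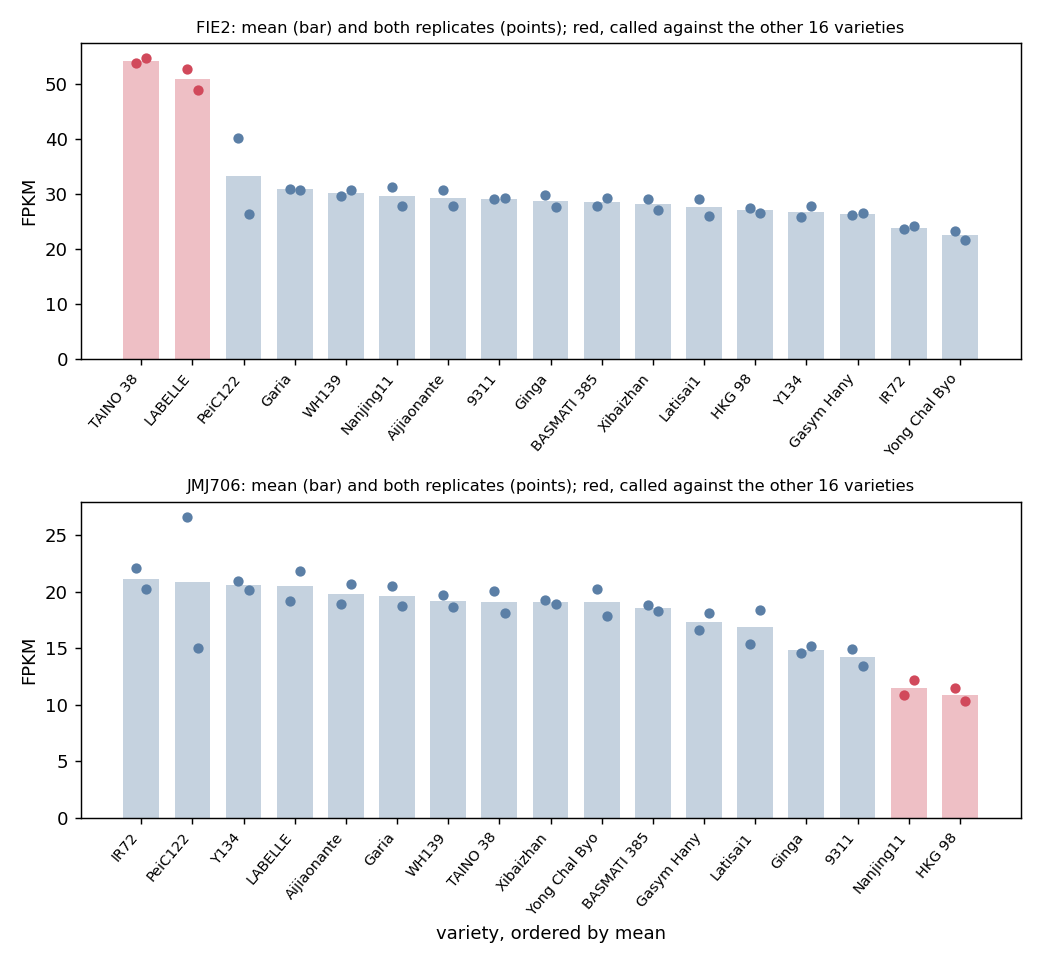
FPKM of FIE2 (upper panel) and JMJ706 (lower panel) in 17 varieties ordered by mean; bars are means of 2 libraries, points the libraries, and red marks varieties called against the other 16. FIE2 reaches 48.9 to 54.6 FPKM in TAINO 38 and LABELLE, and JMJ706 stays at 10.3 to 12.1 FPKM in HKG 98 and Nanjing11.

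EMF2b, which joins FIE2 in PRC2, did not share this pattern. Its libraries held 22.1 and 18.1 FPKM in TAINO 38 and 16.9 and 17.97 in LABELLE, inside the range of the other varieties. No pair of varieties was called for EMF2b, and its F test gave an adjusted p of 0.310 (limma). Its variety means ran from 17.3 FPKM in IR72 to 25.8 in PeiC122, where the replicates held 32.4 and 19.3. The ratio of FIE2 to EMF2b within a library, which no scaling of libraries can alter, was 2.43 and 3.03 in TAINO 38 and 3.12 and 2.72 in LABELLE. It lay between 1.12 and 1.77 in the other 30 libraries. This ratio is 1 of 5 chosen after seeing the data, and it differed among varieties with an adjusted p of 0.00207 (permutation test with 100000 resamples).

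SDG711 and SDG718, the genes of the catalytic subunits, are known from flowering studies in rice, where SDG711 acts in long days and SDG718 in short days. SDG711 was highest in IR72, with 18.4 and 18.7 FPKM, and in PeiC122, with 21.3 and 15.3. It was lowest in Gasym Hany, with 10.8 and 12.1 FPKM, and in LABELLE, with 11.05 and 12.5. The other 13 varieties had means between 12.1 and 16.1 FPKM and formed no separate group. Its F test was called (adjusted p = 0.000309 by limma), with 3 pairs of varieties, IR72 over LABELLE, IR72 over Gasym Hany and PeiC122 over Gasym Hany. Without PeiC122 replicate 1 the pairs with IR72 were still called and that with PeiC122 was not. No variety was called for SDG711 against the other 16.

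SDG718 varied little outside PeiC122. PeiC122 was picked as the highest variety of the order, which favours a gap. Its libraries held 15.98 and 10.1 FPKM, both above the 32 others, which lay between 5.64 and 8.62 FPKM (median 7.39). Of these, Aijiaonante was lowest with 5.64 and 6.74 FPKM, and 9311 and Nanjing11 were highest with 8.36 and 8.60 and with 8.62 and 8.32. SDG718 was higher in PeiC122 than in the other 16 varieties by 0.73 (log2, SE 0.11, n = 2, adjusted p = 1.48e-05 by limma), where 9.22% of all genes tested were called higher. All 14 called pairs of SDG718 included PeiC122, and 1 of them, PeiC122 over Aijiaonante, was called without PeiC122 replicate 1. Without that library the difference from the other 16 was 0.42, below 1.5-fold, and the F test over varieties went from an adjusted p of 0.0032 to 0.0114 (limma). Without both PeiC122 libraries the adjusted p was 0.0502 (limma).

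The ratio of SDG711 to SDG718 within a library was 2.59 and 2.75 in IR72, 2.60 and 2.34 in Garia and 2.61 and 2.30 in Aijiaonante. In PeiC122 it was 1.33 and 1.52, and in Nanjing11 1.46 and 1.53. SDG711 was the more abundant of both in all 34 libraries, by a median of 1.89. The ratio differed among varieties with an adjusted p of 0.0001 (permutation test with 100000 resamples). In PeiC122 the libraries differed 1.39-fold in SDG711 and 1.58-fold in SDG718, and the ratio of both genes stayed low in each. Without both PeiC122 libraries Nanjing11 had the lowest ratio, and none of the 5 ratios had an adjusted p above 0.00564 (permutation tests with 100000 resamples). The 5 were chosen after seeing the data, and ratios of other genes were not tested. How many other ratios would pass is therefore unknown, while 68.8% of single genes were called among varieties.

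**Figure D3:**
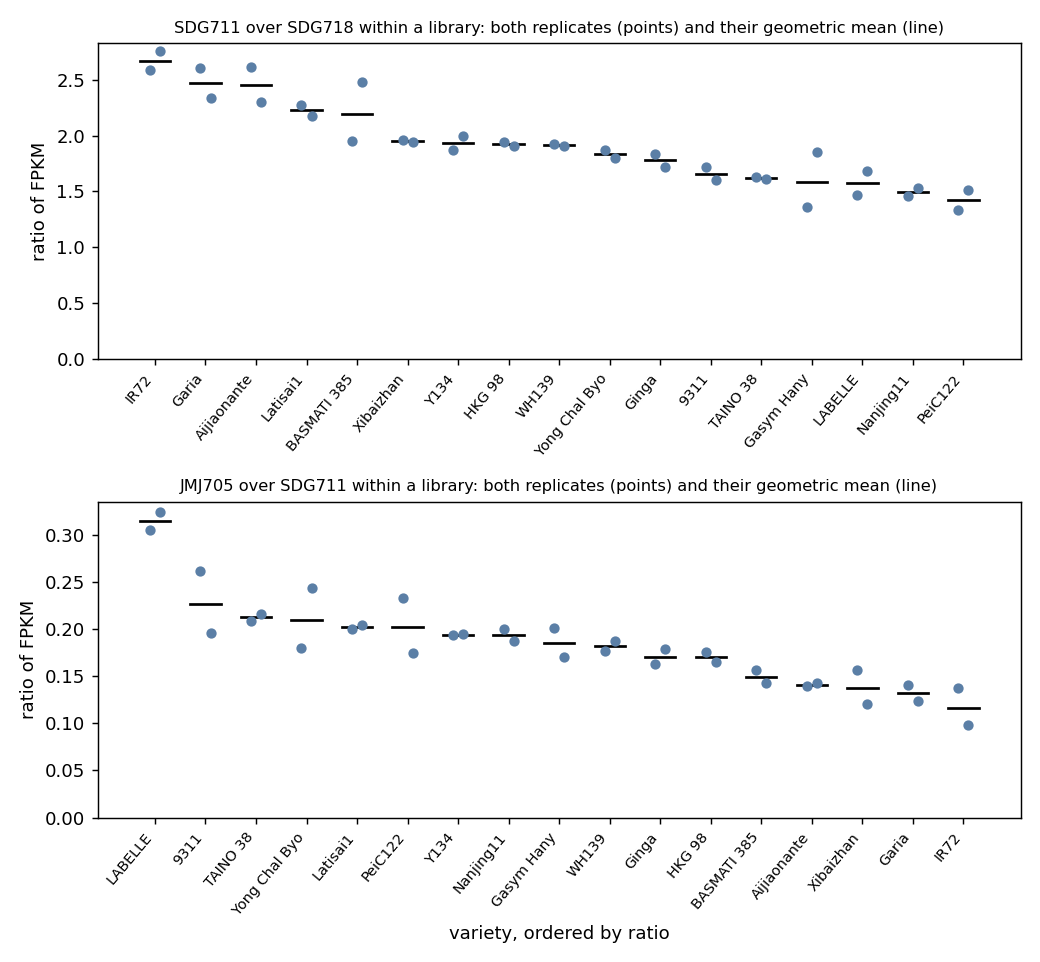
Ratio of FPKM within a library, SDG711 over SDG718 (upper panel) and JMJ705 over SDG711 (lower panel), in 17 varieties ordered by ratio; points are the 2 libraries and lines their geometric mean. SDG711 over SDG718 runs from 2.67 in IR72 to 1.42 in PeiC122, and JMJ705 over SDG711 from 0.315 in LABELLE to 0.116 in IR72.

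SDG714, a methyltransferase of H3K9 whose loss in rice is known to release transposons, was weakly expressed and differed among varieties (adjusted p = 0.000522 by limma). It was highest in BASMATI 385, with 4.07 and 4.18 FPKM, and in Aijiaonante, with 3.82 and 3.96. It was lowest in 9311, with 1.88 and 2.29 FPKM, and in WH139, with 2.50 and 1.94. These high and low libraries did not overlap, but they belong to varieties picked as the extremes of the order, which favours such a gap. The means of the other 13 varieties filled the space between them from 2.23 to 3.67 FPKM. Of its 8 called pairs, BASMATI 385 was the higher variety in 4, Aijiaonante in 3 and TAINO 38 in 1. No variety was called for SDG714 against the other 16.

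SDG725 and SDG724, methyltransferases of H3K36 that are known to promote flowering in rice, were not called in the F test (adjusted p = 0.0539 and 0.0419 by limma). SDG725 was highest in PeiC122, with 33.2 and 18.9 FPKM, and lowest in Yong Chal Byo, with 13.9 and 14.7. Each of its 5 called pairs set PeiC122 above another variety, and none was called without PeiC122 replicate 1. Its range among varieties went from 0.77 to 0.45 (log2) without that library, and replicate 2 lay within the range of the other varieties. SDG724 was highest in WH139, with 15.9 and 15.5 FPKM, and lowest in Ginga, with 9.78 and 9.15. Its 2 called pairs set WH139 and PeiC122 above Ginga, and only that with WH139 was called without PeiC122 replicate 1. SDG725 exceeded SDG724 in all 34 libraries, by a median of 1.35. The ratio was 2.07 and 1.83 in Garia and 1.13 and 1.12 in Nanjing11, and differed among varieties with an adjusted p of 0.00456 (permutation test with 100000 resamples).

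Among the demethylases, JMJ706 was low in HKG 98 and Nanjing11. In rice this enzyme is known to act on H3K9 and to be needed for normal flowers. HKG 98 held 11.4 and 10.3 FPKM and Nanjing11 10.8 and 12.1. The other 30 libraries lay between 13.5 and 26.6 FPKM (median 18.9) with no overlap. HKG 98 and Nanjing11 were picked as the lowest of the order, which favours such a gap. The next varieties in the order were 9311, with 14.95 and 13.5 FPKM, and Ginga, with 14.6 and 15.2. The highest mean was that of IR72, with 22.1 and 20.2 FPKM.

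JMJ706 was lower than in the other 16 varieties by a log2 difference of -0.68 in HKG 98 (SE 0.12, n = 2, adjusted p = 0.000105 by limma) and -0.60 in Nanjing11 (SE 0.12, n = 2, adjusted p = 0.000422 by limma). In these varieties 7.06% and 7.03% of all genes tested were called lower. Its F test gave an adjusted p of 0.00037 (limma). All 24 called pairs set HKG 98 or Nanjing11 below another variety, 13 of them HKG 98 and 11 Nanjing11. Neither differed by this test from 9311 or Ginga, and Nanjing11 was also not called against Latisai1 or Gasym Hany. The difference in Nanjing11 was close to the threshold and fell below 1.5-fold with quantile normalization (-0.56), median-ratio scaling (-0.58) and without PeiC122 replicate 1 (-0.58). Without Nanjing11 replicate 1 it was -0.53 (adjusted p = 0.0325 by limma), and without HKG 98 replicate 2 the difference in HKG 98 was -0.61 (adjusted p = 0.0124 by limma).

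The ratio of JMJ706 to SDG714, a demethylase over a methyltransferase of H3K9, had a median of 6.13. It was 3.96 and 2.94 in HKG 98, 4.45 and 4.37 in Nanjing11 and 4.64 and 4.37 in BASMATI 385. It reached 7.90 and 9.63 in WH139 and 9.11 and 7.997 in Yong Chal Byo. This ratio differed among varieties with an adjusted p of 0.0001 (permutation test with 100000 resamples).

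JMJ703 and JMJ705 were not called in the F test. JMJ703, a demethylase of H3K4, was among the steadiest of the 10 genes, with variety means from 13.2 FPKM in HKG 98 to 20.1 in PeiC122, whose replicates held 25.1 and 15.2. No pair of varieties was called for it (F test, adjusted p = 0.286 by limma). JMJ705, a demethylase of H3K27 and so the counterpart of PRC2, was highest in PeiC122, with 4.98 and 2.68 FPKM, and in LABELLE, with 3.38 and 4.06. It was lowest in Ginga, with 2.04 and 2.101 FPKM. Its F test gave an adjusted p of 0.0173 with all libraries, of 0.00431 without PeiC122 replicate 1 and of 0.00342 without both PeiC122 libraries (limma), so that JMJ705 was then called. Its 3 called pairs with all libraries set PeiC122 above Garia, Xibaizhan and Ginga. Without PeiC122 replicate 1 it had 5, with LABELLE above Garia, Aijiaonante, Xibaizhan, Ginga and Gasym Hany.

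Set against the PRC2 gene SDG711 within a library, JMJ705 ran from a ratio of 0.306 and 0.324 in LABELLE to 0.138 and 0.0985 in IR72, with a median of 0.180 over the 34 libraries. LABELLE, picked as the highest of the order, stood above the 32 libraries of the other varieties, of which 9311 replicate 1 was highest at 0.262. The ratio differed among varieties with an adjusted p of 0.00015 (permutation test with 100000 resamples).

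Across the 170 combinations of a gene and a variety, 5 were called against the other 16 varieties, 3 higher and 2 lower, where 6.95% of all gene and variety combinations were called higher and 6.8% lower. They were FIE2 in TAINO 38 and LABELLE, SDG718 in PeiC122, and JMJ706 in HKG 98 and Nanjing11. In none of these varieties was a second of the 10 genes called. The 136 pairs of varieties gave 89 calls over the 10 genes, where 16.8% of all gene and pair combinations were called, and 8 of the 10 had at least 1 called pair, where 84.3% of all genes tested had one.

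**Figure D4:**
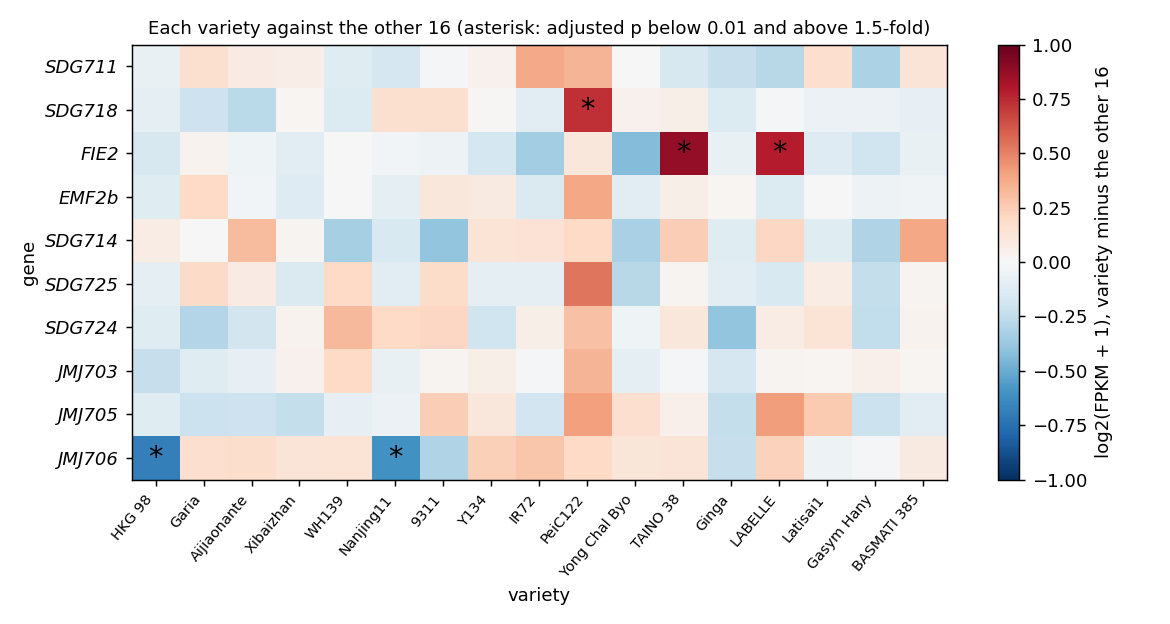
Difference in log2(FPKM + 1) between each of 17 varieties and the mean of the other 16 for the 10 genes; red is higher, blue lower, and an asterisk marks an adjusted p below 0.01 (limma) with a difference above 1.5-fold. The 5 marked cells are FIE2 in TAINO 38 (0.88) and LABELLE (0.78), SDG718 in PeiC122 (0.73) and JMJ706 in HKG 98 (-0.68) and Nanjing11 (-0.60).

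In PeiC122 all 10 genes were above the mean of the other varieties, but the replicates disagreed. Every one of the 10 was higher in replicate 1 than in replicate 2, by 1.28-fold for SDG714 to 1.86-fold for JMJ705 (median 1.62-fold). Over all genes tested the median difference between these libraries was 0, and 45.2% of the genes were higher in replicate 1. Replicate 1 exceeded all 32 libraries of the other varieties for 8 of the 10 genes, FIE2 and SDG714 being the exceptions, where 20.7% of all genes tested did so. In replicate 2 only SDG718 exceeded them, at 1.36 times their median. The part of this replicate difference in the results for the other genes was not tested beyond leaving libraries out. With replicate 1 as the only PeiC122 library all 10 genes were called in the F test, where 82.6% of all genes were called. With replicate 2 as the only one, 5 were called, JMJ705 in place of SDG718, where 73.7% of all genes were called.

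**Figure D5:**
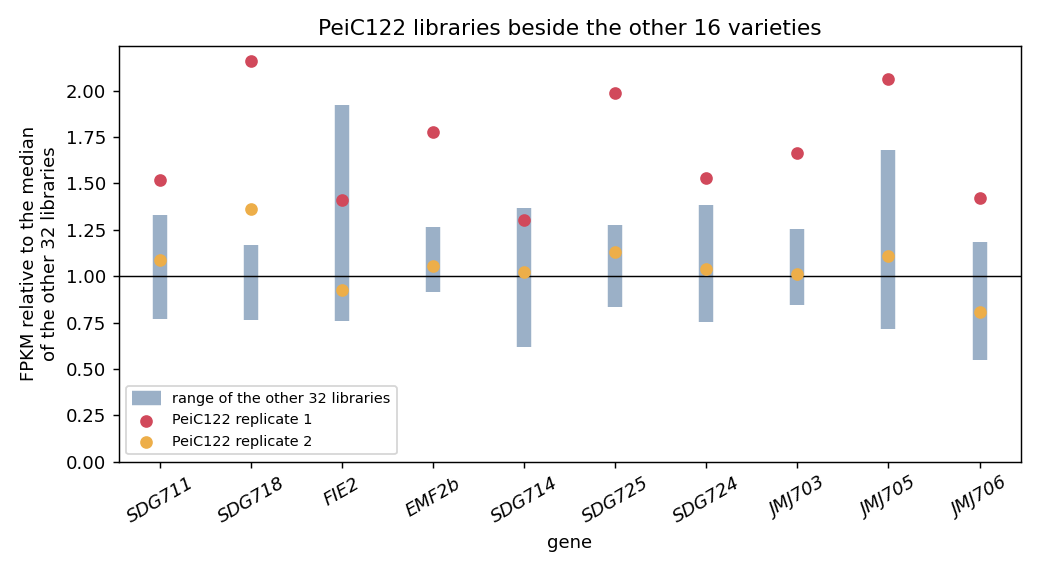
FPKM of the 10 genes in the PeiC122 libraries relative to the median of the 32 libraries of the other 16 varieties; grey bars give the range of the 32, red points replicate 1 and yellow points replicate 2. Replicate 1 is above the bar for 8 genes, up to 2.16 for SDG718, and replicate 2 only for SDG718 (1.36).

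The split of the libraries by the steps of their low values moved with some of the genes. In the 8 varieties with 1 library on each side, EMF2b, JMJ703 and JMJ706 were higher in the library from the 14 in 8 of 8, with median ratios of 1.10, 1.15 and 1.07, and SDG725 in 7 of 8. FIE2 was higher there in 1 of 8 (median ratio 0.939). The share of all genes tested with such counts was not computed, so the counts cannot be read as particular to these genes. The 14 include both PeiC122 libraries, both TAINO 38 libraries and 1 of the LABELLE libraries, and none of HKG 98 or Nanjing11. With this split as a term in the fit, the same 5 genes were called in the F test, where 67.7% of all genes tested were called. Of the 5 combinations with a variety only JMJ706 in Nanjing11 fell below 1.5-fold (-0.56).

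Pairwise relations among the 10 genes over the 17 variety means were weak. Of 45 pairs, 41 had a positive Pearson r, with a median of 0.28. Only EMF2b and SDG725 passed correction over the 45 pairs (r = 0.84, adjusted p = 0.00855; rho = 0.66, adjusted p = 0.199; permutation tests with 100000 resamples). Their r was 0.59 without the 2 varieties farthest from the median of EMF2b. Without PeiC122 replicate 1 it was 0.67 with an adjusted p of 0.160 (permutation test), and no pair passed. This pair still had the highest r of the 45, the median r was 0.07 and 30 pairs were positive. Positive pairs numbered 31 without both PeiC122 libraries, 33 with median-ratio scaling and 38 with quantile normalization. They numbered 44 with replicate 1 alone and 34 with replicate 2 alone. SDG711 and SDG718 had r = 0.24 (rho = -0.12), and -0.25 without the 2 varieties farthest from the median of SDG711. FIE2 and EMF2b had r = 0.16 (rho = 0.43), and 0.67 without the 2 farthest from the median of FIE2. That last value was 0.54 when PeiC122 replicate 1 was left out too. FIE2 and SDG725 had a higher one, 0.77 with all libraries and 0.65 without PeiC122 replicate 1. None of these pairs passed correction over the 17 variety means, and r without the 2 farthest varieties was not tested.

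Outside the 10 genes, the patterns most like that of FIE2 over the 17 variety means, among 17779 genes with a variety mean of at least 5 FPKM, were those of LOC_Os01g51670 (r = 0.93) and LOC_Os09g27744 (r = 0.92). These values describe 17 points that share libraries and were chosen as the highest of many. For the other 9 genes the closest pattern had r between 0.77 for JMJ706 and 0.92 for EMF2b. The identifier next to FIE2 on chromosome 8, LOC_Os08g04280, had a narrower range among varieties (0.76, log2, against 1.23 for FIE2) and r = 0.63 with FIE2.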

How the data were processed

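Total RNA of young leaf was sequenced from TruSeq libraries. According to the methods, the authors trimmed reads with Trimmomatic, mapped them with TopHat2 to the MH63 or ZS97 genome and quantified genes with Cufflinks (version 2.2.5 in the processing notes). The deposited FPKM values are per gene with MSU7 identifiers, and their column numbering is that of a joint run, which may have scaled the libraries. The study aligned histone mark libraries of the varieties to the Nipponbare genome (MSU7), and which genome served their RNA-Seq is not given in the sources used here. Reads that do not match a variety's reference, and reads shared between near-identical genes, could lower or split values, and this was not tested.

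The 10 genes and all lists were chosen with earlier results of these data known. Varieties and replicate numbers came from the labels of the 34 libraries. The other 24 libraries use MH63 identifiers, which could not be paired with MSU7 ones, and were not used here. No 2 libraries held identical values (0 pairs).

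Values were tested as log2(FPKM + 1) with limma 3.58.1 (lmFit, eBayes with a trend, two-sided) in R 4.3.3, with variety as the factor and 17 residual degrees of freedom. Genes with a variety mean above 1 FPKM in at least 1 variety were kept. A gene was called at an adjusted p (Benjamini-Hochberg, over all genes tested) below 0.01 with a difference above 1.5-fold, cutoffs the study states for histone mark signal among varieties. For expression the study used a log2 fold change above 1.5, which was run as an alternative. Adjustment ran within each pair of varieties and within each variety set against the other 16. Correlations and within-library ratios used permutation tests with 100000 resamples (scipy 1.17.1), adjusted over 45 pairs and over 5 ratios. Ratios (with and without PeiC122), the split of libraries by step and the fits without PeiC122 were chosen after seeing the data.

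All 10 genes are named, with the highest and lowest varieties of each and those called against the other 16. For the 2 genes most like each of the 10, only those of FIE2 are named. The reference table used here pairs no MSU7 identifier with a name, so a wider list of histone methylation genes and markers of leaf and other tissues were not analysed here, and the leaf label was not checked against markers. No sequence is printed for the same reason.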

Additional observations from a re-analysis of the deposited data

How the results depend on the processing

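The same 5 genes were called with a pseudocount of 0.1, no filter on low values, quantile normalization, median-ratio scaling and the replicate block. Median-ratio scaling moved the median of a library by at most 0.13 (log2). Of all genes tested, 67.5%, 44.6% (of 38118), 69.7%, 69.3% and 67.9% were called among varieties in these settings, against 68.8% in the main fit. The 5 of 10 thus lay above the share of all genes without the filter and below it in the other settings. No direction was reversed in any setting run. With a log2 fold change above 1.5 as the threshold and the adjusted p kept below 0.01, 0 of the 10 genes were called among varieties (limma). In all 7690 genes were called, 31.3% of those tested. For the 10, 0 pairs of varieties and 0 combinations with a variety were called. With no threshold on the fold change, 7 of the 10 genes reached 0.05 after adjustment of their F test p-values (limma). The share of all genes tested that did so was not computed, so this count cannot be read as particular to the 10. When each of the 34 libraries was left out in turn, genes called among the 10 ranged from 5 to 10, pairs of varieties from 69 to 167, combinations with a variety from 3 to 10 and all genes called from 16114 to 20324. The extremes of the first 3 came from PeiC122, with 3 combinations without replicate 1, and 10 genes, 167 pairs and 10 combinations without replicate 2. Pairs of genes correlated across varieties numbered 1 with both replicates, 11 with replicate 1 alone, 0 with replicate 2 alone, 0 without PeiC122 replicate 1 and 0 without both PeiC122 libraries.

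Replicate numbers did not pair the libraries. The correlation of replicate differences over the 136 pairs of varieties ran from -0.223 to 0.241 and was above 0.1 in 8. With the replicate block 16686 genes were called against 16896, and the F test calls of the 10 genes did not change. Their called pairs of varieties went from 89 to 88. The alternatives for the wider list of histone methylation genes were not run, since the reference does not name those identifiers. With 2 libraries a variety and no counts in the files, counting error is unknown, and the low levels of SDG714 and JMJ705 are those it would affect most.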
